A study of Mus musculus with 2 samples.

Results

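The promoters of long intergenic noncoding RNA (lincRNA) genes were examined in DNase-seq data from mouse spleen. A gene was a member when GENCODE M21 gave it the biotype lincRNA and none of its transcription start sites (TSSs) lay within 2 kb of a TSS of a protein-coding gene. By this rule 5367 of 5854 lincRNA genes on chromosomes 1 to 19, X and Y were members, among 55413 annotated genes, and 487 were left out for a coding TSS within 2 kb. The reference was the set of 21938 protein-coding genes. The 2 libraries formed 1 group: spleens of male B6CASTF1/J mice aged 10 days, as biological replicates 1 and 2, labelled as separate animals that share a donor identifier. B6CASTF1/J is a first-generation hybrid of the C57BL/6J and CAST/EiJ strains, so autosomal loci carry a CAST allele beside the reference allele. Whole tissue was used, and no treatment, genotype contrast or second condition was given, so the data hold no comparison of conditions.

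DNase I cuts DNA where nucleosomes are displaced, and a peak of cuts at a TSS marks an accessible promoter. Within a peak, a footprint is a short stretch cut less than its surroundings, as where a bound protein shields the DNA. LincRNAs are transcribed like messenger RNAs by RNA polymerase II but have no annotated reading frame; known ones build nuclear bodies, carry small RNAs in their introns or act on neighbouring genes. Many are made in one or a few cell types. Spleen at this age holds lymphocytes, macrophages, stroma and red cell precursors.

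The deposited lists held 130476 peaks in replicate 1 and 95847 in replicate 2, with 404781 and 276537 footprints. Promoters of Pax5, Cd79a and Cd22 (B cell), Gata1, Klf1, Epor and Slc4a1 (red cell), Lck (T cell), Csf1r (macrophage) and Tlx1 (spleen) had a peak in both libraries. Cd3e had one in replicate 1 alone and Spic, of red pulp macrophages, in neither. Of the genes of other organs, Alb had none, Apob one in replicate 1 alone, and Syn1 one in both. A peak in bulk tissue does not tell few cells with an open promoter from many cells with a weak one. Signal is the authors' value per peak. No source used here states its scale or the read totals, so levels were compared within a library. A ratio between the libraries holds an unknown constant common to all promoters, so only its order and its differences among promoters are read.

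The strongest promoter peak of replicate 1 is printed for 9 members that the results turn on, from the GRCm38 (mm10) reference, 5′ to 3′ on the strand of the gene. Capitals mark bases inside footprints of both libraries. The first set holds the strongest lincRNA promoter that is neither ribosomal nor repeated, and 4 RNAs with known roles: Tmem250-ps (chr2:26140541-26140700, minus strand), Malat1 (chr19:5802601-5802760, minus strand), Neat1 (chr19:5845821-5846020, minus strand), Mir142hg (chr11:87755421-87755600, plus strand) and Pvt1 (chr15:62037881-62038080, plus strand). Tmem250-ps is a lincRNA gene in GENCODE M21 but a protein-coding gene in RefSeq.
Tmem250-ps: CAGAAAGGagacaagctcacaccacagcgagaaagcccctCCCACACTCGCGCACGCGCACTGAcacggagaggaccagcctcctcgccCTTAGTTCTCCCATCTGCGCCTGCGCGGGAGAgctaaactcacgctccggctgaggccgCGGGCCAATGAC
Malat1: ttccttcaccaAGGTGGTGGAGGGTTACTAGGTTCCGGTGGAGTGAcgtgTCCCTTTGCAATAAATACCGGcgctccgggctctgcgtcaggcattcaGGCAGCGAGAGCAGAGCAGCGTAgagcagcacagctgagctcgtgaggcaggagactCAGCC
Neat1: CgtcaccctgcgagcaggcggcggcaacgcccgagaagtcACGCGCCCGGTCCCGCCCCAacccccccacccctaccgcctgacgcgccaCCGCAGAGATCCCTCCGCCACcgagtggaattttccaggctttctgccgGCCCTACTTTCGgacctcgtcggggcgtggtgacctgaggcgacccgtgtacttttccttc
Mir142hg: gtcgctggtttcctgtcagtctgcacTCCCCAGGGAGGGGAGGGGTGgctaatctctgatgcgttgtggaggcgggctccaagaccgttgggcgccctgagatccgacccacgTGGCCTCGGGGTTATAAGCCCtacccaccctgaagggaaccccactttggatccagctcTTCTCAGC
Pvt1: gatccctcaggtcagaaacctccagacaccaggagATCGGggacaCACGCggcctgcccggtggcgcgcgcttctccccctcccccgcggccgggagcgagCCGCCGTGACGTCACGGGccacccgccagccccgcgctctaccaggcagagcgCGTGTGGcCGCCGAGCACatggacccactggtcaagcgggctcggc

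The second set shows 3 promoters with a CTCF match and a strong promoter with many shared footprint bases: Bloodlinc (chr11:102377281-102377440, minus strand), Gm40608 (chr10:21189101-21189260, minus strand), Zfp469 (chr8:122269541-122269720, plus strand) and Gm31812 (chr1:52113721-52113960, minus strand). Zfp469 is a lincRNA gene in GENCODE M21 but a protein-coding gene in RefSeq, so its peak may not be a lincRNA promoter.
Bloodlinc: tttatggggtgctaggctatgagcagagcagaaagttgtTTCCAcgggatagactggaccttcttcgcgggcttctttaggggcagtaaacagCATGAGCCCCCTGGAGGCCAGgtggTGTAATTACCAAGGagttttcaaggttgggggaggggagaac
Gm40608: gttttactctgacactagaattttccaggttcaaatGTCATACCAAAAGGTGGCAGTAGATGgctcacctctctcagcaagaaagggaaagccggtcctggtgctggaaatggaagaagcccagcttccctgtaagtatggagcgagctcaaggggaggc
Zfp469: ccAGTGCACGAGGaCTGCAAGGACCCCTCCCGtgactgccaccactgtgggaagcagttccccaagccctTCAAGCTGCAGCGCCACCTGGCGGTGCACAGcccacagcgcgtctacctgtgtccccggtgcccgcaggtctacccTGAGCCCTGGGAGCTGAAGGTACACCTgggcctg
Gm31812: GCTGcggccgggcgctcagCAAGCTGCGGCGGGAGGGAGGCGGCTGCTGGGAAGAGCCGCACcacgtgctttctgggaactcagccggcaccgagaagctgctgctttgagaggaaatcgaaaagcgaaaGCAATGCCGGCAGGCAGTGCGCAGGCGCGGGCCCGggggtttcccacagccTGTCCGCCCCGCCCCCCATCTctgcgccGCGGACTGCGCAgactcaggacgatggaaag

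In these printed peaks the footprints of both libraries covered 76 of 160 bases at Tmem250-ps, 84 of 160 at Malat1, 54 of 200 at Neat1, 50 of 180 at Mir142hg and 45 of 200 at Pvt1. They covered 40 of 160 bases at Bloodlinc, 26 of 160 at Gm40608, 87 of 180 at Zfp469 and 115 of 240 at Gm31812. The CTCF match of Bloodlinc, Gm40608 and Zfp469 lay with at least 50% of its bases in such capitals in each case. So did the cAMP response element TGACGTCA of Pvt1, the CCAAT box of Tmem250-ps, the GC box of Neat1 (GGGCGG, read on the other strand) and both GC boxes of Gm31812. A match of letters is not a bound site.

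Most lincRNA promoters had no DNase peak in spleen, and the share with one was far below that of protein-coding promoters. Both libraries placed a peak within 500 bp of at least 1 TSS of 576 among 5367 lincRNA genes (10.7%, exact 95% interval 9.92 to 11.6%), against 60.7% of 21938 protein-coding genes (13323 genes, 60.1 to 61.4%). In replicate 1 the share was 835 lincRNA genes (15.6%), against 67.7% of coding genes. In replicate 2 it was 631 lincRNA genes (11.8%), against 61.3% of coding genes. Replicate 1 alone gave a peak at 259 lincRNA genes and replicate 2 alone at 55, and 4477 (83.4%) had none in either library. Intervals cover counting error only. No test was run, since the sets are not groups of samples. The 576 genes shared 561 distinct strongest peaks, since 30 of them shared a peak with another member.

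**Figure D1:**
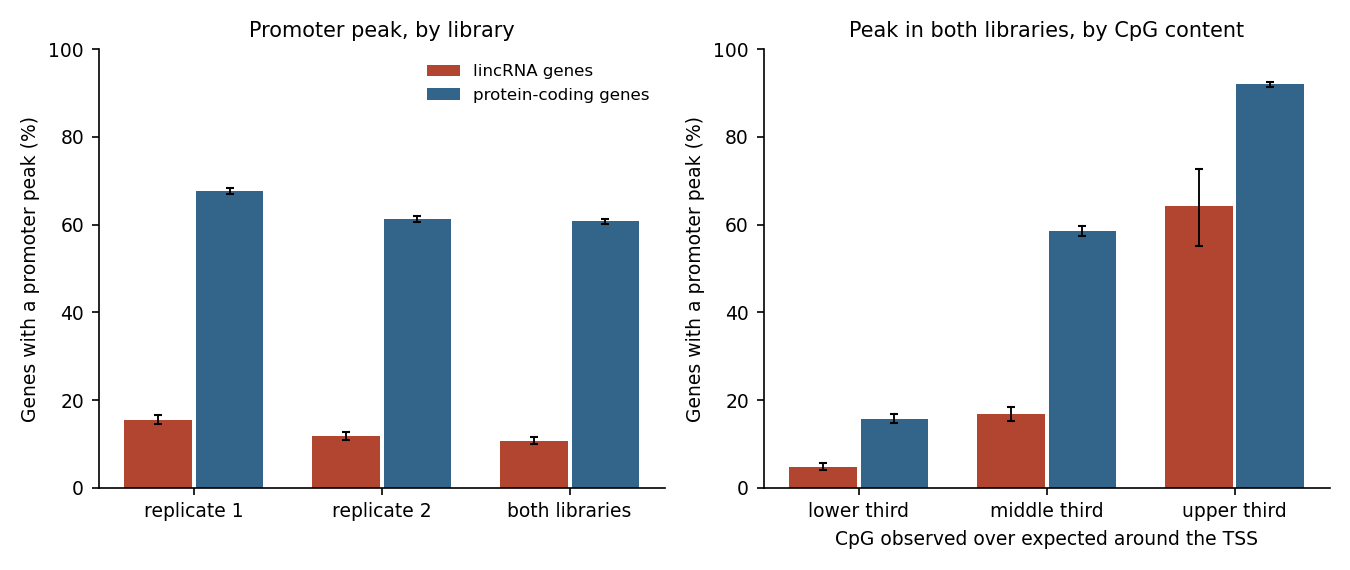
Share of lincRNA genes (red) and protein-coding genes (blue) with a DNase peak within 500 bp of a TSS, by library (left) and in both libraries by CpG class (right); y axes in percent, error bars exact 95% intervals. In both libraries 10.7% of lincRNA and 60.7% of coding genes had one, and the lincRNA share lay below the coding share in each CpG class.

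LincRNA genes left out by the 2 kb rule were much more often open. Of the 487 lincRNA genes with a TSS within 2 kb of a coding TSS, 289 (59.3%, 54.8 to 63.7%) had a peak in both libraries, close to the coding share. Antisense genes over 2 kb from a coding TSS had a share like that of the members, at 200 of 1653 (12.1%, 10.6 to 13.8%). The members nearest the rule's edge were Gm45436 at 2001 bp and 2210039B01Rik at 2086 bp, and just inside 2 kb lay Gm16188 at 1975 bp and Gm47796 at 1963 bp. None of these 4 had a peak. At the 500 bp window, Gm29918 and 4930431P22Rik counted with a peak edge at 498 bp, while Gm38171 (507 bp in both libraries) did not count, nor did Gm13293 in replicate 1 (508 bp).

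LincRNA genes are poor in CpG islands, the CpG-dense stretches at which most broadly used promoters lie. Genes of both kinds together were split into 3 equal classes by the ratio of observed to expected CpG within 500 bp of the most upstream TSS, cut at 0.235 and 0.647. Only 2.29% of lincRNA genes (123) fell in the CpG-rich class, against 40.9% of coding genes. In that class 64.2% of lincRNA genes (79; 55.1 to 72.7%) were open in both libraries, against 92.0% of coding genes (91.4 to 92.5%). In the middle class the shares were 16.8% of lincRNA and 58.6% of coding genes, and in the CpG-poor class 4.76% and 15.8%. The intervals of lincRNA and coding genes did not overlap in any class. Open lincRNA genes had a median CpG ratio of 0.337 and those with no peak 0.192, against 0.713 and 0.170 at coding genes.

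Annotation and repeats went with openness too. LincRNA genes with 1 annotated TSS were open in 9.19% of cases, with 2 in 12.8% and with 3 or more in 23.4%. Coding genes had 29.2%, 39.7% and 79.0%. More TSSs also mean more windows in which a peak can count. Where soft-masked repeats filled over 50% of the 300 bases around the TSS, 26 of 1320 lincRNA genes (1.97%) were open, against 16.6% where no base was masked. That TSS was the one nearest the strongest peak, or the most upstream one at genes with no peak. RefSeq held a gene of the same symbol and place for 2332 members, of which 14.5% were open, against 7.81% of the 3035 without a match. RefSeq gives 53 members as protein-coding, 16 of them open, among them Tmem250-ps and Zfp469; without them 10.5% of the members were open.

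By chromosome, the share among autosomes ran between 4.36% on chromosome 8 (14 of 321) and 19.7% on chromosome 17 (41 of 208). On X it was 7 of 92 (7.61%). On Y, 0 of 548 lincRNA genes had a peak in both libraries, and 4 of 183 coding genes did. Counting error alone would allow a lincRNA share of up to 0.547% by the limit of 3 counts (exact 95% upper bound 0.671%). These limits take the genes as independent, which repeated sequences are not. For 545 of the 548 lincRNA genes the 201 bases around the most upstream TSS were repeated, with at least 50% of their 32-base words found elsewhere in the reference. The same held for 173 of the 183 coding genes on Y, and none of those 173 was open in both libraries. The part of repeats in the Y value was not tested. Over all chromosomes 1036 lincRNA genes (19.3%) had such a repeated TSS and 34 of them were open. Without them 542 of 4331 (12.5%, 11.5 to 13.5%) were open, against 64.9% of coding genes treated alike.

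Open lincRNA promoters were weak. Among genes open in both libraries, the strongest promoter peak had a median signal of 1.46 at lincRNA genes, against 8.54 at coding genes, in replicate 1. In replicate 2 the medians were 0.781 at lincRNA genes and 3.55 at coding genes. The lincRNA promoters ran between 0.143 and 43.6 in replicate 1, with quartiles of 0.653 and 3.87. The log2 ratio of these medians was -2.55 in replicate 1 and -2.18 in replicate 2, with a mean of -2.36 (SD 0.256 between the libraries). Without replicate 2, over all genes open in replicate 1, it was -3.26, and with only peaks at or above their library's median signal -1.66. Still, 55 lincRNA promoters in replicate 1 and 62 in replicate 2 reached the coding median. Signal differed in each CpG class: in replicate 1 the medians were 6.10 at lincRNA and 11.9 at coding genes in the CpG-rich class, 1.48 and 4.28 in the middle class, and 0.895 and 2.30 in the CpG-poor class. Genes with more TSSs have more windows from which the strongest peak is taken. Among genes with 1 annotated TSS the gap was smaller, with medians of 1.22 at lincRNA and 4.57 at coding genes in replicate 1. In replicate 2 these were 0.720 and 2.07. Among all deposited peaks the median signal was 0.578 in replicate 1 and 0.553 in replicate 2, and 80.9% and 62.0% of the open lincRNA promoters reached it.

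**Figure D2:**
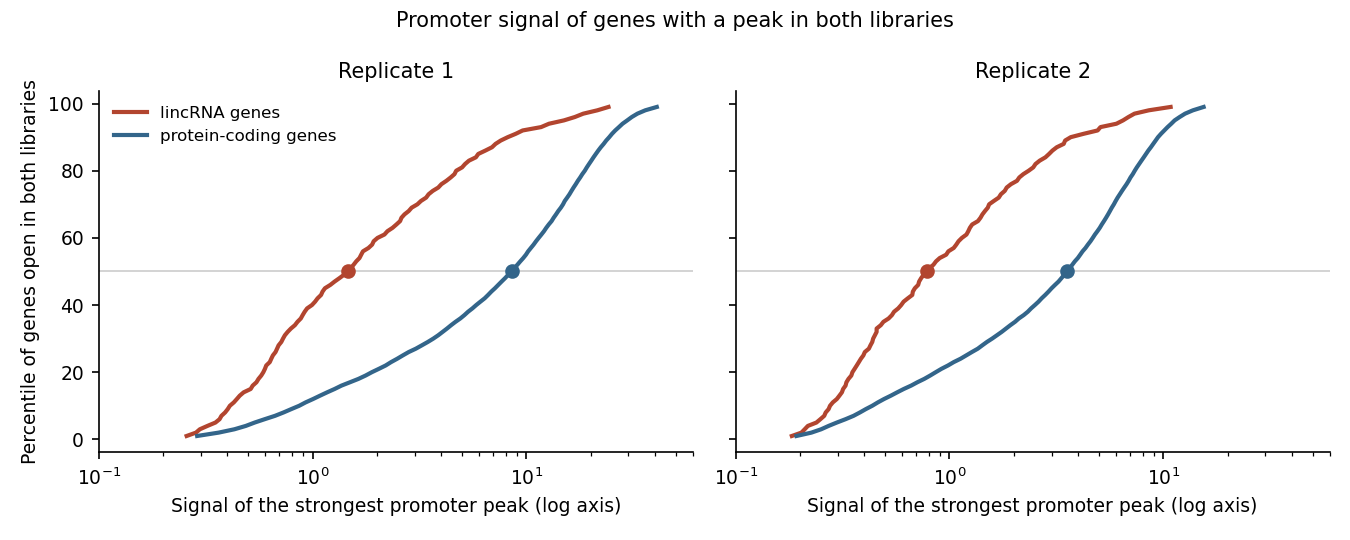
Percentiles 1 to 99 (y) of the signal of the strongest promoter peak (x, log axis, the authors' signal) among 576 lincRNA genes (red) and 13323 protein-coding genes (blue) open in both libraries, per library; dots mark the medians. The lincRNA curve lies left of the coding curve over the plotted percentiles, with medians of 1.46 and 8.54 in replicate 1.

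Promoters that counted as open in a single library had weaker peaks there. Genes with a peak in replicate 1 alone had a median signal of 0.334 there, and those with a peak in replicate 2 alone 0.260. The strongest of them were Gm26615 (1.24), AC166654.1 (1.04) and AC141471.3 (0.986) in replicate 1, and 1700037C06Rik (0.745), Gm12107 (0.599) and Gm43409 (0.574) in replicate 2. The peak of 1700037C06Rik is also that of Gm13001 and was not absent from replicate 1. There it had 2.96 at Gm13001 but lay outside the 500 bp window of 1700037C06Rik. Of the 4477 lincRNA genes with no peak, 41 held bases with a listed false discovery rate (FDR) of the cut rate below 0.05 in replicate 1 and 27 in replicate 2, 9 of them in both. Only values below 0.05 were listed, and all 576 open lincRNA promoters held such bases in both libraries. The list thus follows the peak calls closely and cannot show how much weaker signal lies below them. At an FDR below 0.001, 529 of the 576 open lincRNA promoters (91.8%) had such bases in replicate 1 and 458 (79.5%) in replicate 2, against 98.0% and 93.9% of open coding promoters.

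The peaks lay further from the nearest annotated TSS than those of coding genes. An annotated TSS lay inside a peak for 291 of 576 lincRNA promoters (50.5%) in replicate 1 and 284 (49.3%) in replicate 2, against 86.3% and 84.4% of coding promoters. The middle of the strongest peak was a median of 135 bp from the nearest TSS at lincRNA genes and 51.5 bp at coding genes in replicate 1. It lay upstream at the median of both sets, by 45.5 bp and 33.5 bp. Open coding genes had a mean of 5.46 annotated TSSs and open lincRNA genes 1.73. More TSSs give a peak more chances to lie on or near one, and the part of this in the difference was not tested.

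The 10 strongest lincRNA promoters, ranked by the geometric mean of both libraries, spanned a signal of 17.5 to 43.6 in replicate 1, where others outside the 10 also passed 17.5. Gm42418, first by that mean, had 34.4 in replicate 1 and 42.2 in replicate 2, and it was the highest lincRNA promoter of replicate 2. RefSeq gives this gene as an 18S ribosomal RNA pseudogene (Rn18s-rs5), and all 32-base words of its peak recur in the reference, so its signal and that of the copies cannot be told apart. Tmem250-ps, the highest of replicate 1 but a protein-coding gene in RefSeq, had 43.6 in replicate 1 and 14.8 in replicate 2. Its peak, printed above, holds a CCAAT box, and its nearest coding gene Nacc2, 15582 bp away, had 1.41 and 0.703. 1700096K18Rik had 42.9 in replicate 1 and 12.5 in replicate 2, in a place whose nearest coding gene, Cct8l1, had no peak in either library. Gm2885 (28.4 and 10.6), Gm15408 (26.9 and 11.1), C920006O11Rik (29.0 and 9.20) and 1700020I14Rik (21.7 and 10.9) followed, each value pair in the order of the replicates.

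Gm31812 had 22.3 in replicate 1 and 9.39 in replicate 2. Gm20443 had 19.5 in replicate 1 and 10.8 in replicate 2, and its nearest coding gene, the collagen receptor gene Ddr1, 35185 bp away, had 0.975 and 0.394. The Gm20443 promoter was thus stronger than the coding promoter nearest to it in each library.

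Of the 36 members on 7 lists of known lincRNAs, 20 were open in both libraries, 4 in replicate 1 alone, 1 in replicate 2 alone and 11 in neither, beside 10.7% open among all members and 60.7% among coding genes. RNAs that build nuclear structures or act as scaffolds were open at 5 of 6. Malat1, a nuclear speckle RNA, reached 17.5 in replicate 1 and 11.9 in replicate 2. Neat1, the scaffold of paraspeckles, had 16.6 and 6.77. Lncpint, a p53-responsive transcript, had 4.62 and 1.36. The gene of Norad, which binds Pumilio proteins and is listed as 2900097C17Rik, had 3.35 and 1.71. Pvt1, the neighbour of Myc, had 2.48 and 0.879. Miat, named for a myocardial infarction locus, had no peak. The Malat1 and Neat1 promoters thus stood above the coding median in both libraries, and the other 3 below it.

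The 4 small nucleolar RNA (snoRNA) hosts that passed the distance rule were all open. Snhg6 had 9.99 in replicate 1 and 2.98 in replicate 2, Epb41l4aos 9.19 and 5.27, Snhg12 8.83 and 4.78, and Snhg20 6.96 and 2.75. These genes carry snoRNAs, guides of ribosomal RNA modification, in their introns. The list named 17 genes found in the annotation, and the other 13 were not lincRNA members by the rule.

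The microRNA host list was open at 5 of 10. Mir142hg, the source of the blood cell microRNA miR-142, had 18.2 in replicate 1 and 6.87 in replicate 2, above the promoter of its nearest coding gene Tspoap1 (1.69 and 1.06). Mir670hg had 8.0 and 2.82. That peak, at chr2:94178881-94179040 in replicate 1, lay at an inner TSS, far from the most upstream one at 94264918. Mir155hg, the source of the lymphocyte activation microRNA miR-155, had 1.67 and 0.511. Mir17hg, which carries the miR-17-92 cluster of growing cells, had 0.326 and 0.289, below the lower quartile of open lincRNA promoters, and no footprint in replicate 2. The lowest FDR within 500 bp of the Mir17hg TSS was nonetheless 6.73e-30 in replicate 1 and 1.95e-25 in replicate 2. Mirt1, also on that list though not known as a microRNA host, had 2.24 and 0.871. Hosts of the neuronal microRNAs miR-124 and miR-9 had no peak in both libraries: Mir124a-1hg had 0.319 in replicate 1 alone, and Mir124-2hg and Mir9-3hg had none. Mir9-3hg did hold bases with an FDR of 6.1e-06 in replicate 1 and 0.0013 in replicate 2. Carmn, a smooth muscle RNA, had 0.555 in replicate 1 alone.

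In these male mice, Xist, the RNA that coats the inactive X of female cells, had no promoter peak. Its activators on the same chromosome did: Ftx had 9.42 in replicate 1 and 3.601 in replicate 2, and Jpx had 1.96 and 0.980. Of the imprinted lincRNAs H19 and Mirg had no peak, and Meg3 had 0.356 in replicate 1 alone.

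The blood and immune list was open at 5 of 8. Lockd, an RNA made downstream of the cell cycle inhibitor gene Cdkn1b, had 6.91 in replicate 1 and 2.45 in replicate 2, beside 7.85 and 3.25 at Cdkn1b itself, 8579 bp away. Bloodlinc, an RNA of red cell maturation, had 1.76 and 1.53, beside 9.74 and 4.22 at Slc4a1, the anion exchanger of red cells, 10817 bp away. Gm14005, which RefSeq names Morrbid and which controls the lifespan of short-lived myeloid cells, had 0.780 and 0.435. Its peak, at chr2:128429822-128430000 in replicate 1, lay near an inner TSS, far from the most upstream one at 128502765. Ptgs2os2, the macrophage RNA next to the cyclooxygenase gene Ptgs2, had 0.353 and 0.297. Mir155hg is also on this list. Trp53cor1, a p53 target next to Cdkn1a, had 0.559 in replicate 1 alone, Ifngas1, next to interferon gamma, 0.222 in replicate 2 alone, and AW112010 had none. None of the 5 RNAs of other organs was open in both libraries: Hotair (a HOX locus RNA), Paupar, Rmst (both neural) and Bvht (heart) had no peak, and Carmn is given above.

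**Figure D3:**
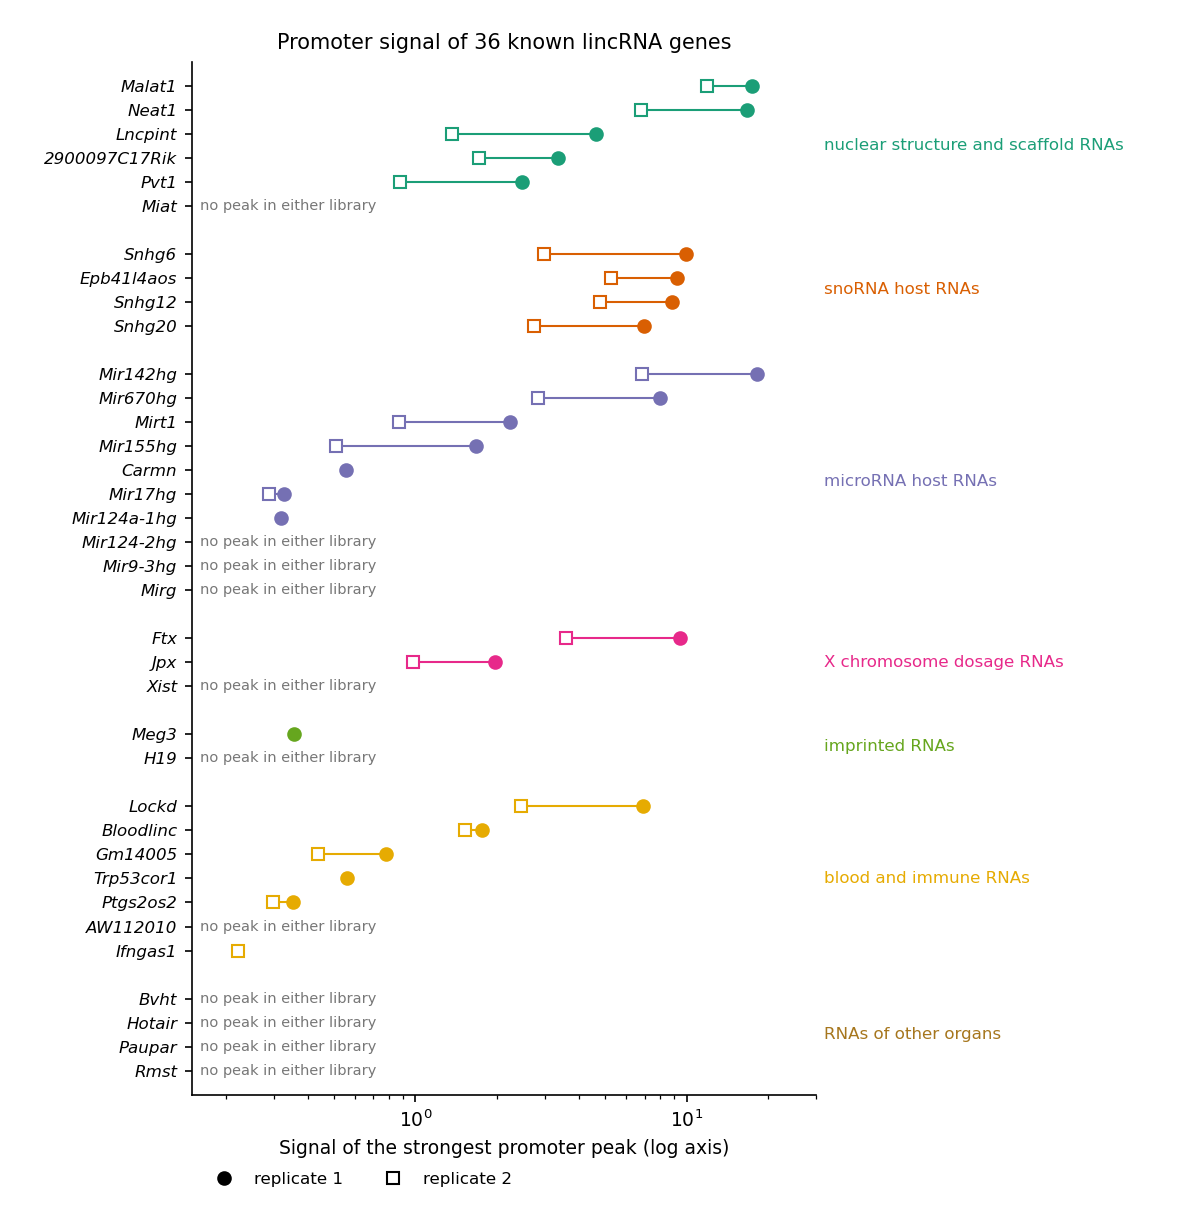
Signal of the strongest promoter peak (x, log axis, the authors' signal) of 36 known lincRNA genes (rows), with replicate 1 as filled circles and replicate 2 as open squares; genes on several lists are drawn once. Malat1, Neat1 and Mir142hg lie furthest right, with 17.5, 16.6 and 18.2 in replicate 1, and the 4 snoRNA hosts all have both symbols.

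Footprints were about as many per length in open lincRNA promoters as in coding ones, but covered fewer bases of the strongest peaks. A footprint of the same library overlapped a promoter peak in both libraries at 532 of 576 lincRNA promoters (92.4%, 89.9 to 94.4%), against 97.4% of coding promoters. Per 100 bp of promoter peak there were 1.49 footprints at lincRNA and 1.48 at coding genes in replicate 1, and 1.24 and 1.28 in replicate 2. The median lincRNA promoter had 4 footprints in replicate 1 and 3 in replicate 2, against 7 and 6 at coding promoters. The most lay at Ftx (22 in replicate 1 and 19 in replicate 2), 9530027J09Rik (18 and 20), Lncpint (21 and 15), E130102H24Rik (24 and 11) and Malat1 (8 and 21). Where the strongest peaks of both libraries overlapped, footprints of replicate 1 covered 32.5% of the bases at lincRNA promoters, against 40.1% at coding promoters, and those of replicate 2 covered 23.2% against 32.5%. Of the footprint bases of replicate 1, 55.8% at lincRNA promoters lay in footprints of replicate 2, against 68.3% at coding promoters. Of those of replicate 2, 78.1% at lincRNA promoters lay in footprints of replicate 1, against 84.3% at coding promoters.

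Within classes of signal, promoter peaks of lincRNA and coding genes recurred between the libraries at shares a few percentage points apart. All promoter peaks were split at the values that cut the lincRNA promoter peaks of a library into 3 equal classes, 0.431 and 1.13 in replicate 1. The strongest class has no upper limit, so signal was not alike within it. Its median signal in replicate 1 was 2.90 at lincRNA promoters, 5.36 at coding promoters and 2.22 at distal peaks. In replicate 2 these medians were 2.02, 3.51 and 1.76. In the strongest class 98.2% of lincRNA promoter peaks of replicate 1 overlapped a peak of replicate 2, against 96.4% of coding promoter peaks and 98.4% of distal peaks, over 500 bp from any TSS. In the weakest class these shares were 21.6% at lincRNA promoters, 20.8% at coding promoters and 19.1% at distal peaks. In the middle class they were 68.5% at lincRNA promoters, 64.4% at coding promoters and 66.3% at distal peaks. In replicate 2 the weakest class gave 68.8% at lincRNA promoters, 66.2% at coding promoters and 53.0% at distal peaks. Its middle class gave 90.4% (86.3 to 93.5%) at lincRNA promoters, 84.6% (83.8 to 85.4%) at coding promoters and 86.7% at distal peaks, so there the lincRNA and coding intervals did not overlap. Footprints per 100 bp in the strongest class of replicate 1 were 1.98 at lincRNA promoters, 1.90 at coding promoters and 1.97 at distal peaks. In replicate 2 the order differed, with 1.82 at lincRNA promoters, 1.90 at coding promoters and 1.89 at distal peaks. In the middle class of replicate 1 they were 1.16 at lincRNA promoters, 0.952 at coding promoters and 1.35 at distal peaks. The median signal of all promoter peaks of replicate 1 was 0.638 at lincRNA genes, against 1.55 at coding genes and 0.488 at distal peaks.

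**Figure D4:**
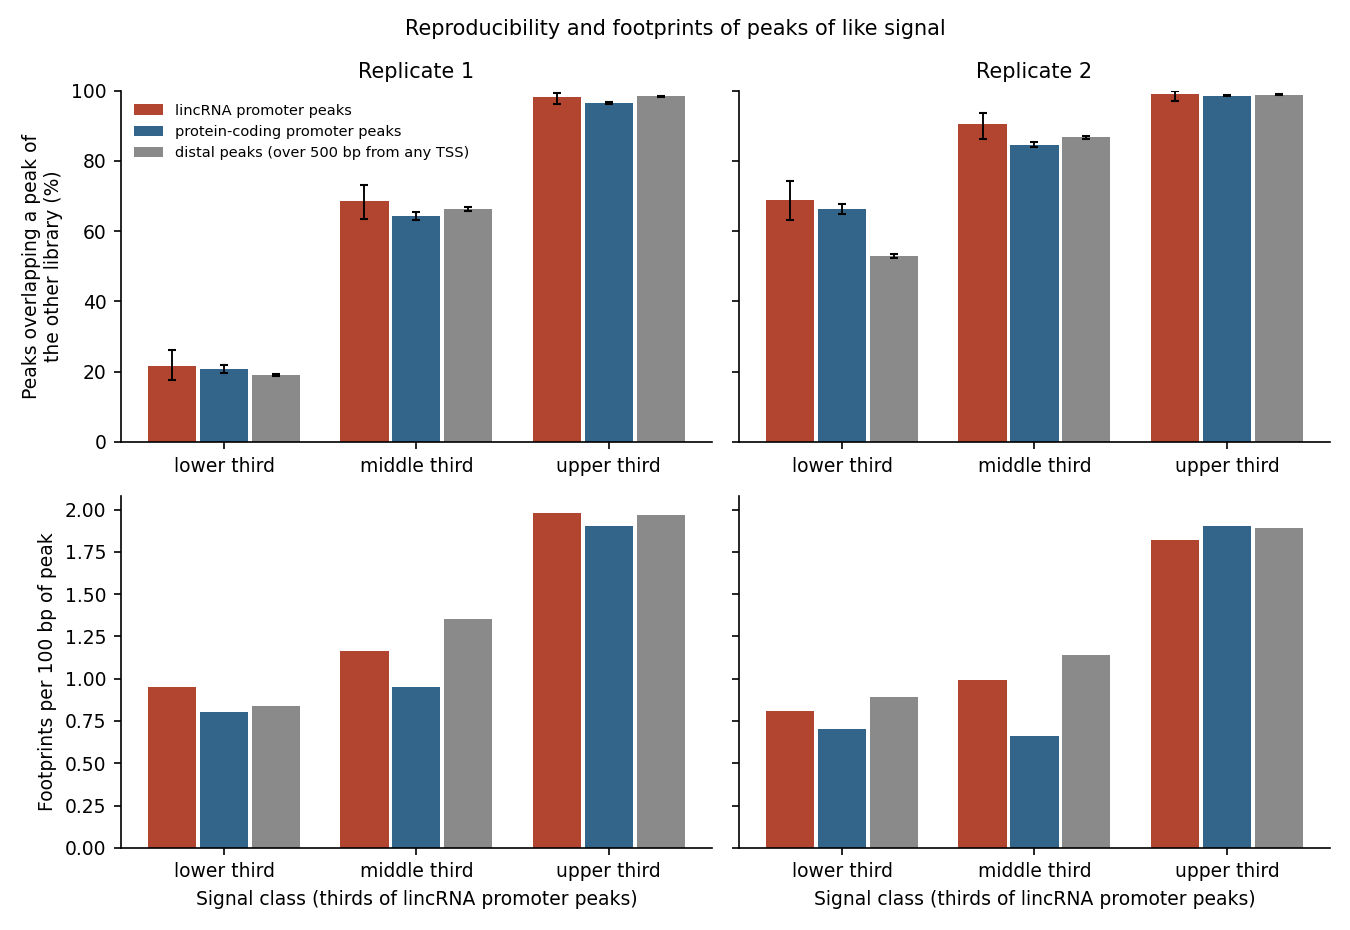
Top, share of peaks that overlap a peak of the other library (percent, exact 95% intervals); bottom, footprints per 100 bp of peak; x axes, 3 signal classes cut on the lincRNA promoter peaks of each library. LincRNA promoter (red), coding promoter (blue) and distal peaks (grey) reach 98.2, 96.4 and 98.4% in the strongest class of replicate 1, and the footprint density rises with signal at lincRNA promoters in both libraries.

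The letters in open lincRNA promoters differed from those in open coding promoters. Each motif was searched on both strands in 300 bases, 250 before to 50 after the TSS nearest the strongest peak. For promoters with no peak the most upstream TSS was taken, so the windows of open and closed promoters were not chosen alike. The GC box GGGCGG, read by SP factors, was in 24.7% of open lincRNA promoters (142; 21.2 to 28.4%), against 67.2% of open coding promoters and 5.20% of lincRNA promoters with no peak. The ETS motif CCGGAAG was in 9.03% of open lincRNA promoters, against 18.3% of open coding promoters, and the NRF1 motif GCGCATGC in 1.04% against 5.63%. The PU.1 motif GAGGAAGT, of the myeloid and B cell factor Spi1, went the other way, with 8.16% (47; 6.06 to 10.7%) against 3.14% (2.85 to 3.45%). It was in 2.73% of lincRNA promoters with no peak and 3.75% of coding promoters with no peak. The RUNX motif TGTGGTT was in 8.33% of open lincRNA promoters, against 3.54% of open coding ones, but also in 6.01% of lincRNA promoters with no peak. The GATA motif AGATAA was in 12.2% of open lincRNA promoters, against 5.44% of open coding promoters, and in more, 18.1%, of lincRNA promoters with no peak. CTCF matches were in 5.21% (3.54 to 7.35%) of open lincRNA promoters, against 6.94% (6.52 to 7.39%) of open coding promoters, and in 0.715% of lincRNA promoters with no peak. Within the strongest peak of replicate 1 itself, 56 of 576 lincRNA and 1048 of 13323 coding promoters held a CTCF match. The open lincRNA and coding intervals in the 300 bases overlapped and the order in the peaks was the reverse, so no order is read for CTCF. The GC box, ETS, PU.1, RUNX and GATA motifs kept their order within the strongest peaks.

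The remaining motifs of the 15 searched went as follows. The KLF motif CCACCC, which overlaps the GC box family, was in 35.2% of open lincRNA and 36.9% of open coding promoters. The CCAAT box was in 33.0% and 37.9%, the cAMP response element TGACGTCA in 1.91% and 3.68%, and the YY1 motif AAGATGGC in 2.43% and 4.76%. The AP-1 motif TGANTCA was in 8.68% and 4.08%, TATAAA in 10.8% and 5.94%, the E-box CANNTG in 75.9% and 62.4%, and the IRF motif in 3.82% and 2.94%. LincRNA promoters with no peak held AP-1, TATAAA and E-box matches more often than open ones, in 10.0%, 17.3% and 82.5%; for AP-1 the intervals overlapped.

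Footprints themselves, widened by 5 bp on each side, held CTCF matches in 58 of 2638 cases (2.20%, 1.67 to 2.83%) at lincRNA promoters, against 1.19% (1.12 to 1.26%) at coding promoters in replicate 1. In replicate 2 these shares were 2.50% (1.89 to 3.24%) and 1.27% (1.19 to 1.35%). GC boxes were in 8.38% of lincRNA promoter footprints of replicate 1, against 16.9% of coding ones. PU.1 matches were in 0.379% (10 footprints) against 0.137% in replicate 1, and in 0.5002% (11 footprints) against 0.138% in replicate 2. AP-1 matches were in 0.644% against 0.193% in replicate 1. Base composition differs between the sets, and its part in these shares was not tested.

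Open lincRNA promoters lay closer to coding genes, and the nearest coding gene was more often open, than at lincRNA genes with no peak. The median distance to the nearest coding TSS was 36.7 kb for the 576 open lincRNA genes and 83.6 kb for the 4477 with no peak. Of lincRNA genes 2 to 5 kb from a coding TSS 19.3% were open, of those at 10 to 50 kb 16.0% and of those beyond 200 kb 4.17%. The nearest coding gene was open in both libraries for 447 of 576 open lincRNA genes (77.6%, 74.0 to 80.9%), and for 59.0% (57.6 to 60.5%) of those with no peak. For coding genes whose nearest other coding TSS lay over 2 kb away, these shares were 74.96% and 31.4%. Within distance bands, lincRNA genes beside an open coding gene were open in 23.9% of cases at 2 to 5 kb, 18.1% at 10 to 50 kb and 11.8% at 50 to 200 kb. Beside a coding gene not open in both, they were open in 5.26%, 12.0% and 4.48%. At 5 to 10 kb the shares were 17.2% and 11.2%, and beyond 200 kb 5.37% and 2.60%. The intervals of the paired shares overlapped at 5 to 10 kb and beyond 200 kb. The strand of the nearest coding gene made a small difference, with 11.4% open on the same strand and 10.0% on the opposite one (intervals 10.3 to 12.7% and 8.92 to 11.2%).

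**Figure D5:**
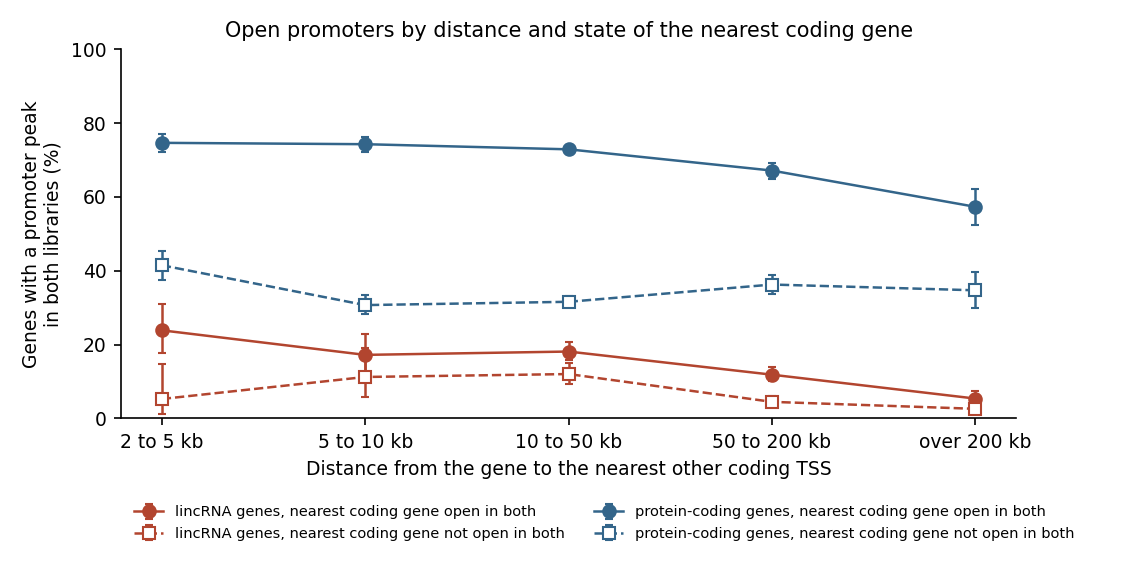
Share of genes with a promoter peak in both libraries (y, percent, exact 95% intervals) by distance to the nearest other coding TSS (x) for lincRNA genes (red) and protein-coding genes (blue); filled circles, nearest coding gene open in both libraries; open squares, not open in both. LincRNA genes beside an open coding gene go down from 23.9% at 2 to 5 kb to 5.37% beyond 200 kb.

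Several open lincRNA promoters had a gene of a spleen cell type as nearest coding gene, on lists of 13 cell types. For red cell genes 2 of 9 such lincRNAs were open in both libraries: Bloodlinc, above, and Zfp469, which GENCODE M21 calls a lincRNA but RefSeq a protein-coding gene. Zfp469 had 7.55 in replicate 1 and 3.07 in replicate 2 and lies 12572 bp from Zfpm1, the GATA1 cofactor gene, with 43.4 and 13.3. For B cell genes it was 3 of 7: Gm47230 (5.83 and 2.58) near the chemokine receptor gene Cxcr5, and Gm12159 (1.11 and 0.674) and Gm12160 (0.998 and 0.314), 204790 bp and 248805 bp from the B cell factor gene Ebf1. Gm47230 was stronger than the Cxcr5 promoter (2.40 and 1.00), 17731 bp away.

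For progenitor genes 3 of 15 were open, with Gm40608 (1.60 in replicate 1 and 2.11 in replicate 2) and Gm33619 (0.769 and 0.624) 28198 bp and 21711 bp from Myb, a regulator of blood progenitors, and Gm32250 (0.630 and 0.377), 56350 bp from Cd34. For neutrophil genes 2 of 4 were open: Gm26692 (5.00 and 1.51), 36333 bp from Gfi1, and 2610028E06Rik (1.06 and 0.318), 102133 bp from Csf3r. Csf3r itself had no peak in either library. For T cell genes 2 of 19 were open: Gm19585 (0.683 and 0.356), 153125 bp from Satb1, and 2010110G14Rik (0.600 and 0.322), 173134 bp from Lef1. The Gm19585 peak, at chr17:52149181-52149360 in replicate 1, lay at an inner TSS, far from the most upstream one at 51986415. For endothelial genes 2 of 7 were open, both with the VEGF receptor gene Kdr as nearest coding gene. They were Gm28865 (2.75 and 1.53), 125500 bp away, and Gm19590 (0.600 and 0.310), 142813 bp away. For dendritic cell genes 2 of 10 were open: Gm36723 (0.514 and 0.431), 206800 bp from Id2, and 4930546C10Rik (0.368 and 0.306), 391828 bp from Tcf4. The Gm36723 peak also lay at an inner TSS, at chr12:25316066-25316268 in replicate 1, with the most upstream TSS at 25303940. None was open near NK cell (4), macrophage (8), stroma (4) or liver genes (4), and 1 of 11 near neuron genes, Gm26755 (1.84 and 0.695), 2766 bp from Neurod1. Megakaryocyte genes were nearest to no member. These counts are small, beside 10.7% open among all members.

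The libraries ranked lincRNA promoters alike. Spearman's rho between the signals of both libraries was 0.930 over 576 lincRNA and 0.973 over 13323 coding promoters; points share the libraries and are not replicates. The median log2 ratio of replicate 1 to replicate 2 was 0.902 at lincRNA promoters and 1.28 at coding promoters, and it rose with signal in both sets: 0.603, 0.867 and 1.13 over 3 classes of rising geometric mean signal at lincRNA promoters, and 0.852, 1.15 and 1.34 at coding promoters in the same classes. The lowest ratios were at Gm28151 (0.750 in replicate 1 and 2.96 in replicate 2), 1700072G22Rik (0.893 and 2.92) and 5430427N15Rik (0.285 and 0.645). The highest were at 1700001L05Rik (7.07 and 1.73), Gm13001 (2.96 and 0.745) and Gm49700 (1.24 and 0.318), the last with a repeated peak sequence.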

How the data were processed

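DNase-seq of 2 spleen libraries was used, with files in mm10 coordinates. The deposited README records derive every list from the alignments of 1 library; the aligner and callers are not given in the sources used. The authors' signal per peak has no stated scale. The longer of the 2 deposited peak lists was used. The score column of the footprints, as deposited, was a constant and served no purpose here. The FDR values, deposited as q-values per stretch of bases, all lay below 0.05. Read totals are not known, so depth sets no interval here; exact (Clopper-Pearson) 95% intervals cover counting error of genes only.

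TSSs came from GENCODE M21. A promoter was open when a peak overlapped the 500 bp either side of any TSS; its signal was that of the strongest peak. Footprints counted when they overlapped a promoter peak of their library by 1 bp. Sequences came from GRCm38.p6, and RefSeq biotypes by symbol and place. Repeated sequence meant at least 50% of 32-base words found elsewhere. Python 3.11.15, NumPy 2.4.6 and SciPy 1.17.1 were used, and peak assignment was checked on simulated peaks at known genes.

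Named genes were the 10 strongest, all list members, the 5 with most footprints, up to 2 per list of coding neighbours, the extremes of the library ratio, those nearest each threshold and the 3 strongest in 1 library alone; Gm12160 and Gm32250 were named outside the rule, to complete counts of 3. Members, lists and settings were chosen with earlier results of these data known. With 1 group there was no test. Some genes and sequences are not reported here.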

Additional observations from a re-analysis of the deposited data

How the results depend on the processing

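The lincRNA share stayed below the coding share, and the log2 signal ratio below 0, under every setting run. Against 10.7% of lincRNA and 60.7% of coding genes open, the shorter deposited list gave 8.03% and 56.2%, and peaks at or above their library's median signal 6.58% and 52.4%. The lincRNA share was 13.6% with a 1000 bp window and 6.88% with 100 bp, and the coding share 55.2% with the most upstream TSS alone. The count of 576 open lincRNA genes became 353 with peaks at or above the median signal and 369 with 100 bp, against 431 with the shorter list and 729 with 1000 bp. The mean log2 ratio of -2.36 became -1.87 with the shorter list and -1.66 with peaks at or above the median. The 92.4% of open lincRNA promoters with a footprint in both libraries became 94.7%, 99.2% and, with footprints of 10 bp or longer, 76.4%. The 77.6% with an open nearest coding gene became 70.0% with the most upstream TSS alone. Values from replicate 2 alone and replicate 1 alone ranged over 11.8 to 15.6% for the lincRNA share, 61.3 to 67.7% for the coding share, 631 to 835 for the count, -3.26 to -2.31 for the log2 ratio, 90.8 to 93.2% for footprints and 77.8 to 83.5% for the nearest gene. Leaving out Y or repeated TSSs, chosen after seeing the data, gave 12.0% and 12.5% for lincRNA genes. The other settings moved the shares and the log2 ratio by less than the SD between libraries, and the count by less than 1.5 times. The cause of these shifts was not tested. No paired analysis was possible because the libraries form 1 group. With read totals unknown, weak promoters of rare cells may lie below detection.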
